A study of Mus musculus with 9 samples.

Results

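Sv2a, Sv2b and Sv2c encode the SV2 family of synaptic vesicle glycoproteins. They are 3 of the 21457 genes measured in 16042 cholinergic nuclei of the adult mouse spinal cord, and were taken by gene symbol from the matrix of those nuclei. All 3 had values. Nuclei of cholinergic cells were sorted by a fluorescent nuclear envelope tag from Chat-IRES-Cre::Sun1-sfGFP mice and sequenced singly, with the aim of classifying skeletal motor neurons, visceral motor neurons and cholinergic interneurons. Every sample shared the genotype (1 Chat-iCre allele and 1 SUN-SfGFP allele, each over wild type) and the age of 8 weeks, and none was treated. Cervical, thoracic and lumbar/sacral cord each gave 3 libraries: replicate 1 from a pool of 2 male and 2 female mice, replicate 2 from 4 males and replicate 3 from 4 females. Since the tag is switched on wherever Chat-driven Cre has been active, sorted nuclei that do not use Chat in the adult were also present among the 34231 nuclei annotated, and the 16042 are those the authors kept as cholinergic. The authors divided them into 21 clusters: 3 skeletal (S1 to S3), 10 visceral (V1 to V10) and 8 interneuron clusters (I1 to I8).

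SV2 proteins span the vesicle membrane many times and resemble sugar transporters. They bind synaptotagmin 1, the calcium sensor of fast transmitter release, and help to keep vesicles ready for fusion. SV2A is the binding site of the antiepileptic drug levetiracetam and is the most widespread member in brain, whereas SV2B and SV2C are used by narrower sets of neurons. The luminal loop of each can serve as the receptor by which botulinum neurotoxin A enters nerve terminals, and motor terminals are the classical site at which that toxin acts.

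The 3 genes lie on different chromosomes (GRCm38, GENCODE M21). Sv2a (ENSMUSG00000038486.9) lies on the plus strand at chr3:96181151-96195521, Sv2b (ENSMUSG00000053025.13) on the minus strand at chr7:75114894-75309262, and Sv2c (ENSMUSG00000051111.16) on the minus strand at chr13:95954594-96132577. Each chosen transcript has 13 exons, and the coding sequences hold 742, 683 and 727 codons. Sv2a spans only 14.4 kb against 194 and 178 kb for Sv2b and Sv2c, which matters in nuclei because intronic reads were counted. The coding sequences are 69.2% identical between Sv2a and Sv2b, 67.8% between Sv2a and Sv2c and 68.4% between Sv2b and Sv2c. The longest identical runs of each pair were 15, 18 and 26 bases. The stretches below, in coding sense, surround the longest run that all 3 coding sequences share. They show how short the coding run common to all 3 genes is. Introns, whose reads were also counted, were not compared between the genes.
Sv2a: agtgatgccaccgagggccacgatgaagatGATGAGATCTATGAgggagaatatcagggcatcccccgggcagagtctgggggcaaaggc
Sv2b: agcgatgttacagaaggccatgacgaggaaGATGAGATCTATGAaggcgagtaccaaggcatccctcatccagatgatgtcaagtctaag
Sv2c: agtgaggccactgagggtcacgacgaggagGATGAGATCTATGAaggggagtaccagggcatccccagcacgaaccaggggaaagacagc
The capitals are the shared 14 bases, at coding positions 271 to 284 of Sv2a, 127 to 140 of Sv2b and 256 to 269 of Sv2c. Sv2b overlaps 2 annotated features on the opposite strand, 1500012K07Rik and Gm24858, and Sv2c overlaps Gm20075 and Gm23955 on its own strand and Gm17190 on the opposite one. Only Gm17190 has a row in the matrix, and whether reads were assigned by strand is not given in the sources used here.

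The values were counts corrected by the authors for depth within each library. Here they were summed over the nuclei of a cluster in a library and divided by the total of that sum, in parts per 1000000 (CPM), with a sum used where it held at least 10 nuclei. A level below is the mean of the libraries with their SD. Libraries held 747 to 2825 cholinergic nuclei, with median corrected totals of 4712 to 16127. The names the authors gave the skeletal clusters were checked by markers. The alpha gene Rbfox3 stood at 229 CPM in S2 against 35.8 in S1 and 64.3 in S3. The gamma genes Nrp2 and Plekhg1 were highest in S3 (442 and 530 CPM). The gamma genes Esrrg and Gfra1 separated the clusters less well. Esrrg was at 2056 ± 304 CPM in S3, 1931 ± 272 in S1 and 1004 ± 210 in S2. Gfra1 was at 742 CPM in S3, 381 in S1 and 488 in S2. The Type 3 genes Gpr149 and Rreb1 were highest in S1 (420 and 252 CPM). Rreb1 was at 96.0 CPM in S2 and 42.0 in S3. Of 13 markers of glia, vessels and other neurons, 6 stayed under 2 CPM in each skeletal cluster and none was at exactly 0. Their sum had medians of 158 CPM in S1, 154 in S2 and 128 in S3. The oligodendrocyte gene Mbp had medians of 88 CPM in S1, 81.6 in S2 and 24.97 in S3, and the microglial gene P2ry12 means of 33.5, 30.8 and 37.8 CPM.

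Libraries of replicate 2 stood apart in 2 ways. Hox genes, which mark position along the cord, went against the labels of cervical replicate 2 and thoracic replicate 2. In skeletal motor neurons the Hox group 9 genes summed to 9.82 CPM in the library labelled cervical 2 against 1.88 and 0.342 in cervical 1 and 3, and to 2.36 CPM in the library labelled thoracic 2 against 14.3 and 17.9 in thoracic 1 and 3. Both are kept under their labels, comparisons of lumbar/sacral cord pool cervical and thoracic libraries, and the regional fits and shares are given with and without them, apart from fits with a replicate block and the difference of regional effects between classes. The 71 nuclei assigned to S2 in cervical 2 also carried less of the alpha genes Stk32a (101 CPM against 172 to 545 in the other 8 libraries) and Glis3 (12.8 against 49.0 to 315). The 4 marker genes Zeb2 and Fbn2 of visceral motor neurons and Pax2 and Mpped2 of interneurons were each highest in S2 of cervical 2, with a sum of 339 CPM against 4.40 to 83.5 in the other libraries. The S2 levels, co-detection, partner differences and family shares are therefore also given without this library. Among cholinergic nuclei, 33 barcode sequences occurred in 2 libraries.

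The 3 genes had different patterns over the clusters. Sv2b varied most, by 54.6 times between the highest and the lowest cluster mean, and was highest in the alpha motor neurons of S2. Sv2c varied by 18.6 times and was highest in the interneuron cluster I8, followed by S2 and S3. Sv2a varied by only 3.28 times, was highest in interneurons and was lowest in S2. These levels are a description: the clusters were drawn from the same nuclei, and Sv2b was picked by the study as an S2 marker on them.

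**Figure D1:**
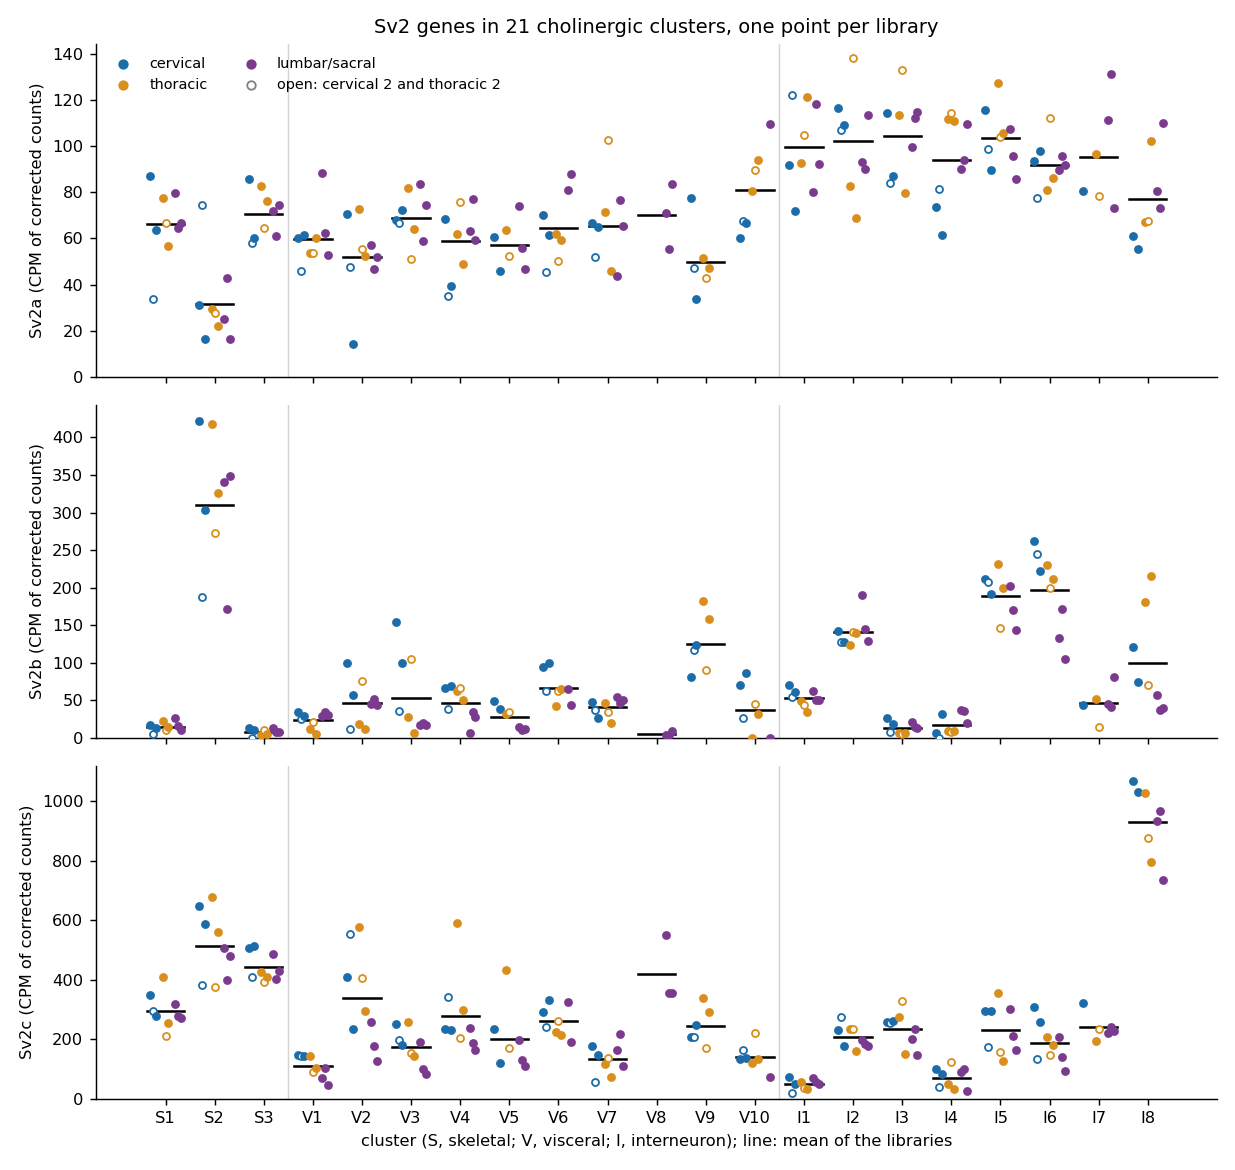
Levels of Sv2a (top), Sv2b (middle) and Sv2c (bottom) in CPM of corrected counts for the 21 clusters, with 1 point for each library, coloured by region, and a line at the mean of the libraries. Sv2b stands out in S2 (mean 310 CPM), Sv2c in I8 (mean 929 CPM), and Sv2a is lowest in S2 (mean 31.7 CPM). Open points are cervical 2 and thoracic 2, whose Hox genes go against their labels.

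Sv2a, the family member with the broadest use in brain, ran from 77.1 to 104 CPM over the interneuron clusters. It reached 104 ± 17.7 CPM in I3, 103 ± 12.8 in I5 and 102 ± 20.6 in I2 (SD, n = 9). Visceral clusters lay between 49.9 CPM in V9 and 81.1 CPM in V10, and S1 and S3 stood at 66.2 ± 15.4 and 70.5 ± 10.1 CPM. No cluster differed from its neighbour in the order of the 21 means by more than the SD of the within-library difference, for any of 20 neighbouring pairs. S2 was the lowest cluster in 7 of 9 libraries, whereas the highest cluster was I1, I2, I3, I5 or I7 depending on the library. At the level of classes, Sv2a stood at 97.4 ± 7.72 CPM in interneurons, 61.1 ± 7.48 in visceral and 59.4 ± 5.26 in skeletal motor neurons (n = 9 each). Interneurons were higher than both motor neuron classes in 9 of 9 libraries, with a log2 difference of -0.67 ± 0.05 (SE) for skeletal minus interneurons and -0.64 ± 0.06 for visceral minus interneurons.

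Sv2b, which in brain is absent from part of the neurons that use Sv2a, was at 310 ± 88.5 CPM in S2 (n = 9; range 172 to 422). It was the highest cluster in 8 of 9 libraries, with I6 highest in cervical 2. The clusters I6 (197 ± 52.1 CPM), I5 (189 ± 29.9), I2 (141 ± 20.03) and V9 (125 ± 39.3, n = 6) came next, so the gene was not limited to skeletal motor neurons. The step from S2 to I6 was 113 ± 98.9 CPM within libraries, with S2 higher in 8 of 9, and the step from I5 to I2 was 48.5 ± 35.7 CPM, higher in 9 of 9. Lowest were V8 (5.68 ± 3.13 CPM, n = 3), S3 (7.98 ± 4.49), I3 (13.4 ± 7.74) and S1 (14.9 ± 6.51). Of 20 neighbouring pairs, 17 did not differ beyond their spread, and 18 of the 21 clusters were below 0.5 of the S2 level.

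Within the 8 interneuron clusters Sv2b spanned 14.8 times, and within the 10 visceral clusters 22.1 times. Classes therefore averaged over clusters with very unlike levels: Sv2b stood at 92.3 ± 53.5 CPM in skeletal motor neurons, 92.9 ± 16.5 in interneurons and 42.1 ± 20.3 in visceral motor neurons. The skeletal value ran from 26.5 CPM in lumbar/sacral 2, where 58 of 602 skeletal nuclei were S2, to 185 CPM in cervical 1, where 395 of 979 were. Class sums therefore carry the number of nuclei of each cluster beside the level within it, and both are given below for S2.

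Sv2c, the member with the narrowest use in brain, was the most abundant of the 3 in counts. I8 held 929 ± 119 CPM (n = 8, range 736 to 1066), and all 329 I8 nuclei had at least 1 corrected count. I8 was the highest cluster in each of the 8 libraries with an I8 sum, 399 ± 114 CPM above S2. The skeletal clusters followed, with 513 ± 114 CPM in S2, 442 ± 47.6 in S3 and 296 ± 57.5 in S1. Among visceral clusters V8, which comes almost only from lumbar/sacral cord, was highest at 421 ± 113 CPM (n = 3) and V1 lowest at 110 ± 37.6 CPM. I1 (49.97 ± 18.1 CPM) and I4 (71.4 ± 35.2 CPM) held the least, so the ends of the Sv2c range are both interneurons. As classes, skeletal motor neurons stood at 419 ± 71.4 CPM, visceral motor neurons at 233 ± 60.3 and interneurons at 196 ± 50.7.

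To set the classes against each other, a difference was counted when its size reached 1 log2 unit (a doubling) with one sign in every library. No p-value is given, for the reason above. Sv2c met this between skeletal motor neurons and interneurons (1.10 ± 0.08 SE log2 units, higher in 9 of 9 libraries), where 11% of 10833 genes did. Sv2b met it between visceral motor neurons and interneurons (-1.16 ± 0.12, lower in 9 of 9; 7.77% of genes), although not with a pseudocount of 20 (-0.92). Between skeletal and visceral motor neurons (11.7% of genes), Sv2b differed by 0.95 ± 0.23 with 8 of 9 libraries higher and Sv2c by 0.85 ± 0.08 with 9 of 9. For Sv2a the 2 motor neuron classes differed by -0.03 ± 0.06, with 3 of 9 libraries higher. Over the 6 comparisons of classes and skeletal clusters, 4 of the 18 values of the family met the criterion, 3 of them for Sv2b.

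The main question for skeletal motor neurons was which member separates alpha (S2), gamma (S3) and Type 3 (S1) neurons. Sv2b did so by the largest margin, Sv2a ran the other way, and Sv2c was high in all 3 clusters. Sv2b stood at 310 CPM in S2, 14.9 in S1 and 7.98 in S3. The lowest S2 library (172 CPM in lumbar/sacral 2) was above the highest library of S1 (26.5 CPM) and of S3 (13.3 CPM), so the groups did not overlap. The log2 difference was 4.00 ± 0.13 against S1, where 3.94% of 11187 genes met the criterion, and 4.64 ± 0.17 against S3 (6.6% of 11098 genes), in 9 of 9 libraries for both.

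For each library, Sv2b in S2 was 422, 187 and 303 CPM in cervical 1 to 3, 419, 273 and 326 CPM in thoracic 1 to 3, and 340, 172 and 349 CPM in lumbar/sacral 1 to 3. Replicate 2, the male pool, gave the lowest of the 3 libraries in every region. The alpha genes Stk32a and Glis3 were likewise lowest in replicate 2 in S2 of every region. Stk32a was at 101, 274 and 172 CPM in cervical, thoracic and lumbar/sacral 2, and Glis3 at 12.8, 49.0 and 88.2 CPM. Rbfox3 was lowest in replicate 2 in cervical and lumbar/sacral cord but not in thoracic cord. What part the assignment of nuclei to S2 had in these levels was not tested. Replicate 2 was also the lowest of its region for Sv2c in S2: 647, 381 and 587 CPM in cervical, 679, 375 and 559 in thoracic, and 506, 401 and 481 in lumbar/sacral libraries 1 to 3. Sv2a in S2 was 31.2, 74.6 and 16.3 CPM, then 29.6, 27.8 and 22, then 25, 42.9 and 16.3 in the same sequence. Cervical 2 was thus the highest for Sv2a and the second lowest for Sv2b.

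Sv2a was lower in S2 than in S1 by -1.04 ± 0.23 log2 units and than in S3 by -1.15 ± 0.19, each in 8 of 9 libraries. The exception in both was cervical 2, the library with markers of other classes in its S2 nuclei, whose part in the value was not tested. Without it the differences were -1.30 ± 0.12 and -1.33 ± 0.13 with 8 of 8 libraries lower, both then meeting the criterion, and the S2 level was 26.4 ± 8.72 CPM. Sv2b without it was 325 ± 80.8 CPM and Sv2c 529 ± 109 CPM in S2.

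Sv2c was 0.77 ± 0.08 log2 units higher in S2 than in S1, in 9 of 9 libraries, and 0.19 ± 0.08 higher than in S3, in 6 of 9. The ranges of the 3 clusters overlapped. Between the non-alpha types (5.58% of 10747 genes met the criterion), S1 held less Sv2c than S3 in 9 of 9 libraries (-0.58 ± 0.06) and more Sv2b in 9 of 9 (0.64 ± 0.14), while Sv2a did not have one direction (-0.11 ± 0.08, higher in 5 of 9). The small Sv2b difference, between 14.9 and 7.98 CPM, met the criterion only with a pseudocount of 1.

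**Figure D2:**
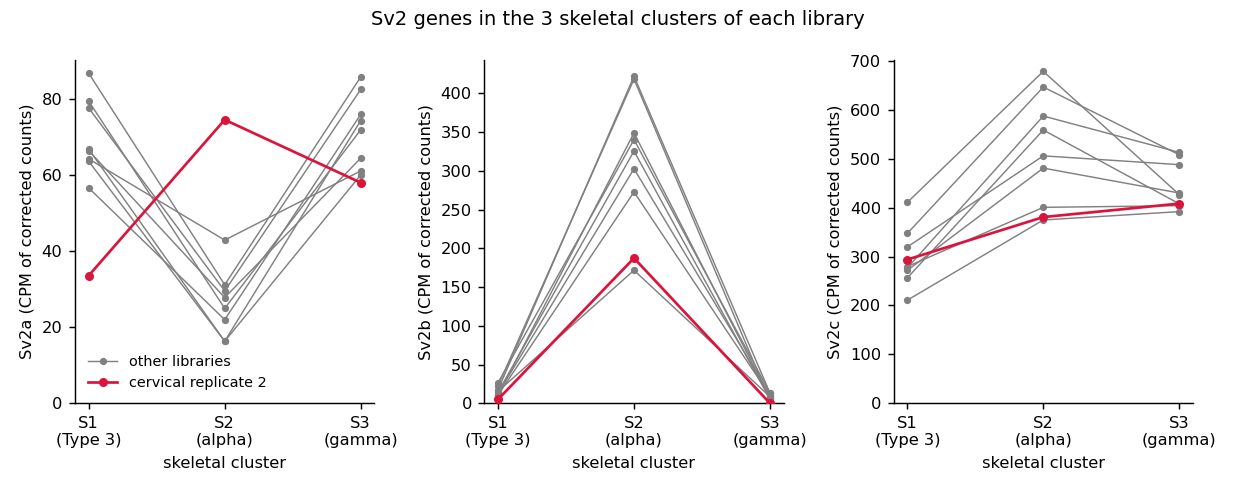
Sv2a, Sv2b and Sv2c in CPM of corrected counts in S1 (Type 3), S2 (alpha) and S3 (gamma), with 1 line for each of 9 libraries and cervical 2 in red. Sv2b peaks in S2 in every line, Sv2a dips there in 8 of 9, and Sv2c is highest there in 6 of 9.

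To compare genes with each other, CPM was divided by the span of the gene in kb, which assumes that nuclear reads scale with the length of the gene. That assumption was not tested, so the comparison is approximate. On this scale, levels in S2 were 2.21 CPM per kb for Sv2a, 1.60 for Sv2b and 2.88 for Sv2c. Of the family's corrected counts in S2, 4.13 ± 3.21% came from Sv2a, 35.8 ± 4.77% from Sv2b and 60.02 ± 3.32% from Sv2c. Per kb these shares became 32.3 ± 14.5%, 24.2 ± 6.62% and 43.5 ± 8.62%, and without cervical 2 28.5 ± 9.66%, 25.8 ± 4.97% and 45.7 ± 5.86% (n = 8). S1 and S3 had a different balance, with 72.0 ± 5.78% and 65.9 ± 3.53% of the family per kb from Sv2a and 1.17 ± 0.355% and 0.546 ± 0.301% from Sv2b. In I8, where Sv2c was highest in CPM, Sv2a and Sv2c took nearly equal shares per kb (47.9 ± 8.76% and 47.6 ± 8.52%).

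Co-detection asks whether the 3 genes occur in the same alpha motor neuron nuclei. S2 held 1285 nuclei (8.01% of the cholinergic nuclei; 26 to 395 per library). In a mean library, 25.6% of them had a value (at least 1 corrected count) for Sv2a, 85.3 ± 12.6% for Sv2b and 96.5% for Sv2c. The most common state was Sv2b with Sv2c and without Sv2a, in 61.1 ± 23.3% of S2 nuclei (879 nuclei). All 3 genes were found in 22.1 ± 22% (224 nuclei), Sv2c alone in 10.4 ± 9.55%, and none of the 3 in 0.962 ± 1.69% (14 nuclei).

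Cervical 2 gave much of that spread: 77.5% of its S2 nuclei had all 3 genes, against 4.40 to 28.3% in the other 8 libraries. Its S2 nuclei had the highest median corrected total (14251 against 4998 to 11496) beside the markers of other classes given above. Their median number of genes was 3791, below the 5012 of all cholinergic nuclei of that library and the 4337 of S2 nuclei in thoracic 1. Sv2a had a value in 60 of these 71 nuclei at 74.6 CPM, and Rbfox3 and Sv2c had one in 100%. These shares rest on depth-corrected counts. Whether each corrected count of at least 1 had an observed read behind it was not tested. The part of totals, gene numbers or other markers was not tested either. Without cervical 2, Sv2b with Sv2c made up 67.3 ± 14.8% and all 3 genes 15.2 ± 7.66% of S2 nuclei (n = 8).

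S1 and S3 nuclei looked unlike S2. Sv2c alone was the leading state in both (46.3 ± 5.96% of S1 and 49.5 ± 6.48% of S3 nuclei), followed by Sv2a with Sv2c (30.7 ± 6.80% and 39.7 ± 11.1%). Sv2b was found in 8.82% of S1 nuclei and 5.0% of S3 nuclei, and in 2.82% of V8 nuclei. The median corrected totals were 7413 in S1, 7323 in S3, 4971 in V8 and 7494 in S2. The matrix holds no cell type known to lack the gene, and V8 gives the lowest share seen. Nuclei were then thinned to 4600 corrected counts, and those with lower totals, all from lumbar/sacral libraries, were left out. The share with Sv2b was then 72.2% in S2, 5.24% in S1, 2.79% in S3 and 1.73% in V8.

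**Figure D3:**
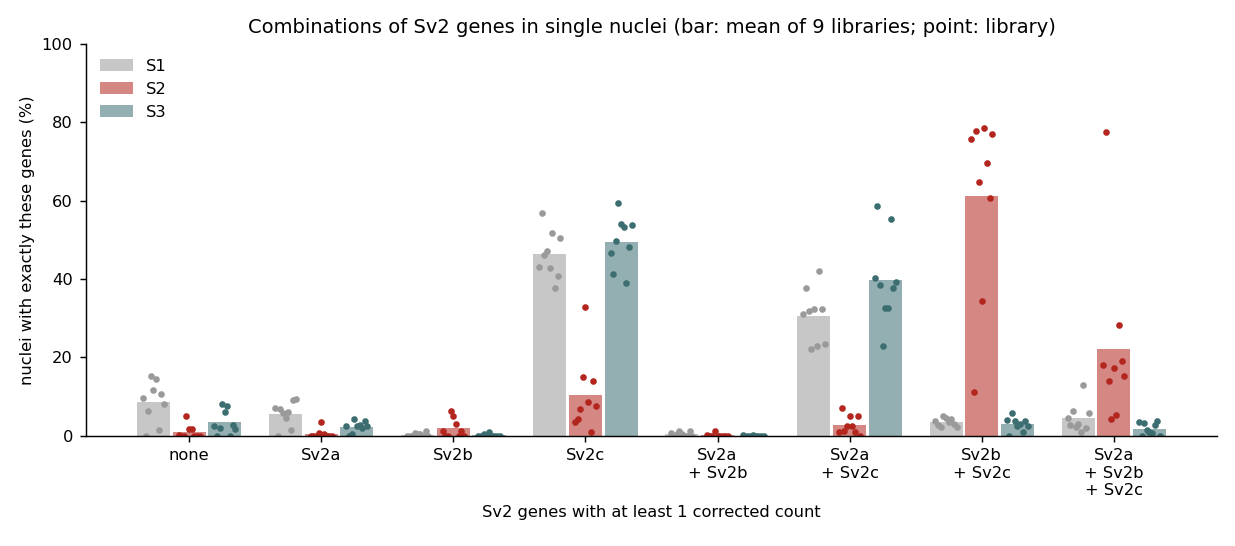
Percent of nuclei with exactly the stated Sv2 genes (at least 1 corrected count) in S1, S2 and S3; bars are means of 9 libraries and points are libraries. Sv2b with Sv2c leads in S2 (61.1%), Sv2c alone leads in S1 and S3 (46.3% and 49.5%), and the S2 point at 77.5% for all 3 genes is cervical 2.

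Within S2 the genes occurred together about as often as the product of their shares in each library. The observed share of nuclei with both Sv2b and Sv2c exceeded that product by 0.515 ± 0.928 percentage points, the share with Sv2a and Sv2b by 0.251 ± 1.51 points, and the share with Sv2a and Sv2c by -0.123 ± 0.368 points (SD, n = 9). Each was smaller than its spread between libraries. In 4 of the 9 libraries every S2 nucleus had Sv2c, so the excess of a pair that includes Sv2c is 0 there by construction. Of the other 5 libraries, the Sv2b and Sv2c excess was above 0 in 4 and below in 1. Among these, Sv2c was in 98.2% of S2 nuclei of cervical 1 and 98.7% in thoracic 2, which leaves little room for an excess. Small values for pairs with Sv2c therefore cannot tell whether the genes go together. Without cervical 2 the excess of Sv2a with Sv2b was -0.0277 ± 1.35 points. After thinning to 4600 counts the excesses were 0.488 ± 2.26, -0.0885 ± 1.36 and -0.393 ± 0.815 points.

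The alpha genes Rbfox3, Stk32a, Glis3 and Chat, the fast-unit genes Chodl, Calca, Mmp9 and Kcnq5, the slow-unit genes Esrrb and Prkcd, and the toxin-related genes Syt1, Syt2, Snap25, Vamp1 and Vamp2 were then compared between S2 nuclei with and without each member. Of 45 such differences, 6 were larger than their SD between libraries, and 2 were after thinning. Without cervical 2, left out after the values were seen, 10 were, of which 6 were for Sv2b (Stk32a, Glis3, Chodl, Mmp9, Prkcd and Vamp2). Sv2b with Glis3, a transcription factor gene, was the pair found in both: Glis3 was present in 41.9 ± 19.4% of nuclei with Sv2b and in 25.9 ± 19.4% of those without, a difference of 16 ± 15.1 points (n = 7 libraries, higher in 6), which was 11.8 ± 9.78 points after thinning (higher in 8 of 9) and 19.7 ± 12.6 points without cervical 2 (higher in 6 of 6). Chodl, a marker of fast motor units, was present in 9.90 ± 6.91% of nuclei with Sv2a and 23.2 ± 13% of those without, a difference of -13.3 ± 9.86 points (lower in 7 of 8 libraries) that was within its spread after thinning and was -15.5 ± 8.11 points without cervical 2 (lower in 7 of 7). The other 4 were Mmp9 with Sv2b and Rbfox3, Chat and Calca with Sv2c, the last 3 over only 4 libraries with at least 5 Sv2c-negative nuclei. These are descriptions of shared nuclei, which differ in depth and sub-type. The share of all genes with a difference beyond its SD was not computed, so whether these partners stood out cannot be told. How easily a difference exceeds its SD also depends on the number of libraries, which was 8 for Sv2a, 7 for Sv2b and 4 for Sv2c as deposited.

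The partners of botulinum toxins were compared in the same way. In S2 nuclei with Sv2b, Snap25, the substrate of toxin A, was found in 99.5 ± 1.24%, Syt1 in 99.2 ± 1.39% and Syt2, a receptor of toxin B, in 94.0 ± 7.30%. Vamp1 and Vamp2, substrates of toxin B, were found in 25.1 ± 10.7% and 16.1 ± 8.86%. In S2 nuclei without Sv2b the shares of Snap25 and Vamp1 were 99.6 ± 1.02% and 20.8 ± 11.3% (n = 7 libraries), differences smaller than their SD. Levels in S2, S1 and S3 were 1099, 975 and 460 CPM for Syt1, 395, 300 and 313 CPM for Syt2, and 801, 730 and 749 CPM for Snap25.

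Where Sv2b stands as a marker depends on the nuclei it is set against. Of 4755 cholinergic nuclei with Sv2b, 1132 were in S2, and per library 22 ± 13.2% were. S2 held 32.3 ± 16.8% of the gene's corrected counts. Outside S2 the most Sv2b-positive nuclei were in I2 (453), I5 (442) and I1 (421). Among skeletal motor neurons alone, 77.0 ± 15.5% of nuclei with Sv2b were in S2.

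The gene did about as well as Stk32a, a kinase gene used as an alpha marker, of whose positive nuclei 24.9 ± 16.9% of all and 77.8 ± 10.4% of skeletal ones were in S2. Rbfox3, the established alpha marker, gave 9.91 ± 6.81% and 42.2 ± 21.5%. For nuclei with both Stk32a and Sv2b these shares were 47.5 ± 25.7% and 96.7 ± 3.45%. With all 3 genes, 1349 nuclei remained, of which 801 were in S2. That was 50.6 ± 27.9% of all cholinergic and 99.1 ± 1.06% of skeletal nuclei with the 3 genes (801 of 809), while the combination covered 54.3 ± 22.6% of S2. The largest numbers outside S2 were 122 in I2, 68 in I6 and 63 in V9, and in V9 they were 25.5% of the cluster. S2 was defined on these same nuclei and the markers were chosen on them, so the shares describe this dataset. Apart from these nuclei, the paper reported Sv2b with Rbfox3 and Stk32a in large Chat-positive ventral horn neurons by in situ hybridization. It also reported SV2B protein in cell bodies and axon terminals of alpha motor neurons by immunostaining.

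**Figure D4:**
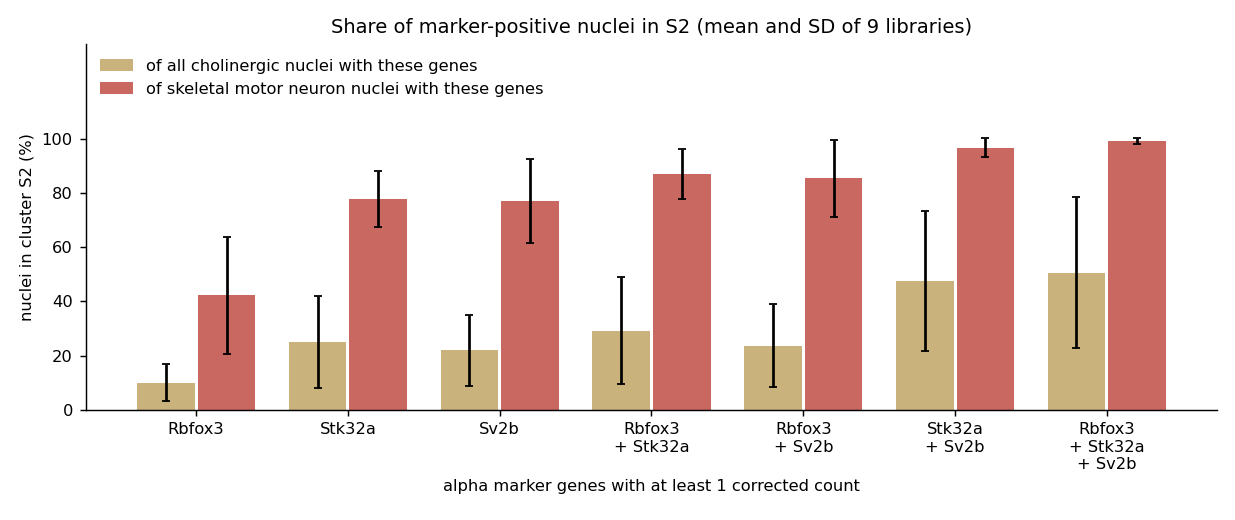
Share of nuclei positive for each set of alpha marker genes that lie in S2, among all cholinergic nuclei (tan) and among skeletal motor neuron nuclei (red); bars and error bars are the mean and SD of 9 libraries. Among skeletal nuclei the share goes from 42.2% for Rbfox3 to 99.1% for all 3 genes, and among all cholinergic nuclei from 9.91% to 50.6%.

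Levels were tested along the cord within classes and clusters, which the authors drew after integrating the data across regions. With limma's moderated test and Benjamini-Hochberg adjustment over all genes, 1 of 126 values of the family passed an adjusted p of 0.05 over the classes and clusters: Sv2b in visceral motor neurons, lower in lumbar/sacral libraries. A further 10 lumbar/sacral and 4 thoracic against cervical values lay under an unadjusted p of 0.05 among those tested (60 and 66). In the lumbar/sacral comparisons limma passed 8.89% of genes in V6, 3.07% in V2, 2.74% in V4, 1.55% in V3, 1.38% in V5, 0.845% in I6, 0.511% in I2, 0.0869% in I8, 0.0783% in V7, 0.0711% in S3, 0.051% in interneurons as a class, 0.0408% in I4, 0.0286% in I5, 0.01% in skeletal motor neurons and 0% in S1, S2, V1, I1 and I3. In the thoracic against cervical comparisons it passed 0% in each. The lumbar/sacral libraries stood at 18.4, 23.2 and 22.4 CPM, the cervical ones at 79.3, 40.4 and 62.9 CPM and the thoracic ones at 46.1, 52.4 and 34.4 CPM, without overlap. The log2 difference for Sv2b was -1.09 ± 0.20 (SE, adjusted p = 0.0176), in a comparison where 4.27% of 10031 genes passed. The call was lost when any 1 lumbar/sacral library was left out (adjusted p from 0.0734 to 0.105), and held at -1.15 (adjusted p = 0.0064; 4.81% of genes) without cervical 2 and thoracic 2.

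The clusters that make up the class also differed between regions, and their part in the difference was not tested. V8, the cluster with the least Sv2b, contributed 225, 116 and 122 nuclei to the lumbar/sacral libraries and at most 3 to any other, while V9, the visceral cluster with the most, contributed at most 2 to lumbar/sacral libraries and 17 to 63 elsewhere. Leaving out the lowest cluster of one region and the highest of the others draws the groups together by construction. With V8 and V9 left out, a choice made after these values were seen, Sv2b in visceral motor neurons was 25.7, 29.7 and 27.4 CPM in lumbar/sacral libraries. Cervical libraries then held 79.5, 33.2 and 59.8 CPM and thoracic ones 34.8, 49.8 and 25.7 CPM, so the groups overlapped and the difference was -0.59 ± 0.26 (adjusted p = 0.507; 1.57% of genes).

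Within single clusters, Sv2b was also lower in lumbar/sacral libraries of V4, V5, I6 and I8, without a call in the fit above. In I6 the lumbar/sacral libraries held 132, 171 and 105 CPM against 200 to 262 CPM in the other 6 (log2 difference -0.75 ± 0.17, adjusted p = 0.0764). In V5 they held 14.4, 9.94 and 11.7 CPM against 31.8 to 49.4 CPM in 4 libraries (-1.35 ± 0.30, adjusted p = 0.0638), and in V4 6.30, 34.6 and 27.4 CPM against 38.1 to 68.8 CPM (-1.36 ± 0.36, adjusted p = 0.0745). The 3 libraries of a replicate come from the same mice. With that replicate as a block, limma gave adjusted p = 0.0235 for Sv2b in I6 (-0.75 ± 0.15; 1.81% of genes passed), 0.0421 in V5 (-1.32 ± 0.33; 3.47%), 0.0449 in V4 (-1.36 ± 0.34; 4.21%) and 0.0202 in visceral motor neurons as a class (-1.09 ± 0.21; 7.35%). For Sv2c the block gave adjusted p = 0.00377 in V2 (-1.11 ± 0.18; 4.16% of genes) and 0.0354 in V3 (-0.69 ± 0.16; 2.63%), where the fit without it gave 0.0771 and 0.410. Without cervical 2 and thoracic 2, and with no block, limma gave Sv2b differences of -0.77 in I6, -1.32 in V5 and -1.45 in V4 (adjusted p = 0.116, 0.0551 and 0.0920) and Sv2c differences of -0.97 in V2 and -0.76 in V3 (adjusted p = 0.127 and 0.344).

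In V2, Sv2c was 258, 176 and 128 CPM in lumbar/sacral libraries and 235 to 576 CPM in the others, so the groups overlapped. Replicate 1 was above replicate 3 in each region. Sv2a passed in none of the classes and clusters tested by limma with or without the block, and 1 of its values, between thoracic and cervical cord, lay under an unadjusted p of 0.05 without it.

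Leaving out cervical 2 and thoracic 2 brought up differences of Sv2b between thoracic and cervical cord. In V2, Sv2b was 100 and 57.7 CPM in cervical 1 and 3 and 18.1 and 11.4 CPM in thoracic 1 and 3, while the library labelled cervical 2 held 11.9 CPM and that labelled thoracic 2 held 75.4 CPM. V3 had the same arrangement, with 154 and 99.8 CPM in cervical 1 and 3, 27.2 and 6.97 CPM in thoracic 1 and 3, 35.1 CPM in cervical 2 and 105 CPM in thoracic 2. Without these libraries the thoracic minus cervical difference for Sv2b was -2.06 ± 0.36 in V2 (adjusted p = 0.0436; 0.291% of genes) and -2.72 ± 0.45 in V3 (adjusted p = 0.0320; 0.296%). With them it was -0.63 (adjusted p = 0.975) and -1.33 (adjusted p = 1.0), and limma passed 0% of genes in either cluster, with 184 of 10318 and 146 of 10077 genes under an unadjusted p of 0.05. In I8 the lumbar/sacral difference of Sv2b was -1.54 ± 0.26 without thoracic 2 (adjusted p = 0.0337; 0.191% of genes; cervical 2 had too few I8 nuclei for a sum) and -1.30 ± 0.34 with it (adjusted p = 0.397).

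**Figure D5:**
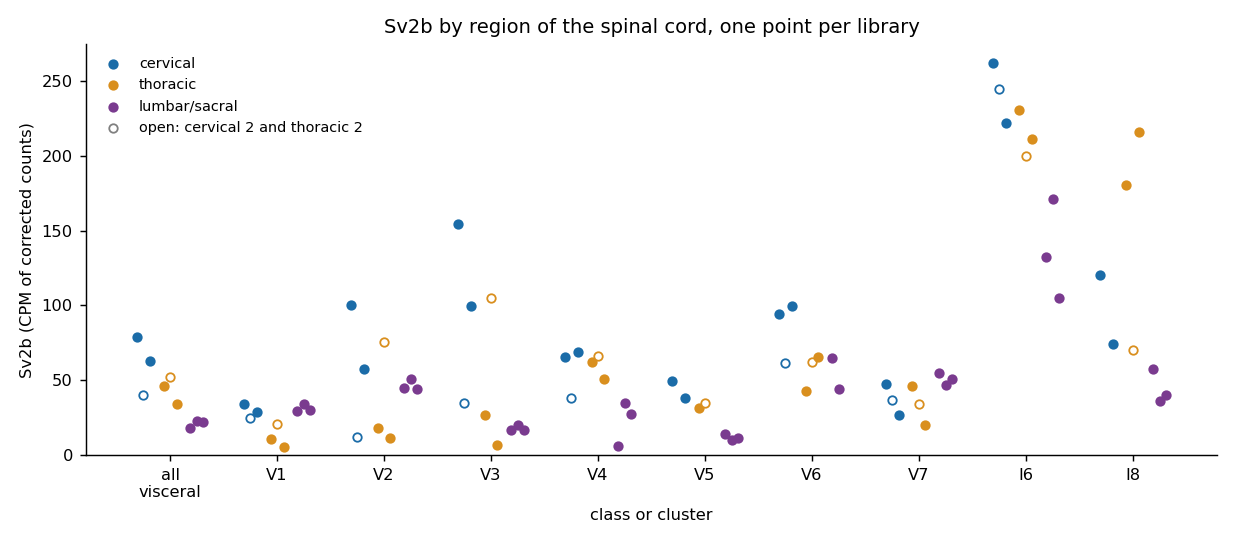
Sv2b in CPM of corrected counts for visceral motor neurons as a class and for clusters V1 to V7, I6 and I8, with 1 point for each library by region; open points are the libraries labelled cervical 2 and thoracic 2. Lumbar/sacral points lie below the others in V4, V5, I6 and I8 and in the class, and the open points in V2 and V3 lie near the points of the other region.

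Alpha motor neurons themselves showed no regional call. In S2 the lumbar/sacral difference was -0.17 ± 0.41 log2 units for Sv2a, -0.18 ± 0.28 for Sv2b and -0.18 ± 0.22 for Sv2c (adjusted p = 0.978, 0.975 and 0.975 by limma). In that comparison 0% of 10387 genes passed and 245 lay under an unadjusted p of 0.05. Without cervical 2 and thoracic 2 the S2 differences were 0.10 ± 0.33 for Sv2a, -0.40 ± 0.27 for Sv2b and -0.42 ± 0.16 for Sv2c (adjusted p = 0.959, 0.910 and 0.910 by limma), so the sign for Sv2a turned. The regional effect of Sv2b differed between visceral motor neurons and interneurons by -0.65 ± 0.19 log2 units (adjusted p = 0.0640 for the difference, where 8.94% of genes passed).

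The share of S2 nuclei with Sv2b did differ by region as deposited: 73.5 ± 15.2% in lumbar/sacral (n = 3) against 91.2 ± 5.86% in the other libraries (n = 6), a difference of -17.7 points (exact two-sided permutation test over 84 groupings, p = 0.0238, not adjusted for the 3 genes tested). Within replicates, by the block, the exact p was 0.0370. Lumbar/sacral 2 had the lowest share (56.9%), and without it the difference was -9.43 points (exact permutation p = 0.107). Its 58 S2 nuclei also had Rbfox3 in 39.7% and Stk32a in 48.3%. The Type 3 gene Gpr149 was at 229 CPM in them, against 29.6 to 143 CPM in S2 of the other libraries. The part of these nuclei in the regional difference was not tested. The S2 nuclei of lumbar/sacral libraries were also the shallowest, with median corrected totals of 4998, 7390 and 5937 against 7506 to 14251. After thinning to 4600 counts, which left out nuclei with lower totals, the shares were 70.0 ± 18.8% and 73.3 ± 12%. The difference was then -3.27 points (exact permutation p = 0.726). Only lumbar/sacral 1 and 3 lost nuclei by this, with 125 of 159 and 241 of 242 S2 nuclei left. For Sv2c the difference was -9.0 points as deposited (exact permutation p = 0.0119, the smallest this design allows) and -4.58 points after thinning (p = 0.381, exact). Sv2a differed by -17.0 points (exact permutation p = 0.381), and by -6.36 points without cervical 2 (exact permutation p = 0.304). Without cervical 2 and thoracic 2 the differences as deposited were -20.9 points for Sv2b, -9.06 for Sv2c and -5.52 for Sv2a (exact permutation p = 0.0286, 0.0286 and 0.429; 35 groupings).

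Sex could be compared only as 1 male pool against 1 female pool, with region in the model. Of 14 values tested by limma for S1, S2, S3, visceral motor neurons and interneurons, 0 passed and 3 lay under an unadjusted p of 0.05. The shares of all genes passed were 0.0411% in S1, 0.0308% in S2, 0.0313% in S3, 0.0513% in visceral motor neurons and 0.0521% in interneurons. In S2, Sv2b was -0.64 ± 0.21 log2 units in males against females (adjusted p = 0.434), Sv2c -0.48 ± 0.19 (0.526) and Sv2a 1.12 ± 0.44 (0.525). Sv2b in S3 was too low to be tested. The alpha genes Stk32a and Glis3 in S2 were also lower in the male than in the female library of every region, and their part was not tested. Sex and the individual pool cannot be told apart.

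Other genes of the synaptic vesicle and its release machinery gave a frame for the family. Of 38 listed genes, 37 had a row in the matrix (the vesicular acetylcholine transporter gene Slc18a3 had none). Between S2 and S1, 2 genes were higher and 2 lower by the criterion of 1 log2 unit among 35 tested (11.4%, beside 2.27% of all genes higher and 1.67% lower), with a list median of 0.05 log2 units beside -0.02 for all genes. Higher in S2 were Unc13c, a vesicle priming factor (2.20 ± 0.25), and Syn3, a synapsin (1.10 ± 0.15). Rab3b, a vesicle GTPase, had a larger difference (2.60 ± 0.30; 63.1 ± 26.3 CPM in S2 against 5.09 ± 2.31 in S1) but was higher in 8 of 9 libraries and so missed the criterion. Lower were Syt7, a slow calcium sensor (-1.59 ± 0.20), and Doc2b, a calcium sensor at under 10 CPM (-1.09 ± 0.19).

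Between S2 and S3, 3 genes were higher and 0 lower among 32 tested (9.38%, beside 3.69% of all genes higher and 2.92% lower): Rab3b (2.44 ± 0.28), Unc13c (2.03 ± 0.28) and Syt1 (1.28 ± 0.07). Syt7 was -1.15 ± 0.21 there, lower in 8 of 9 libraries and short of the criterion. Unc13c was the gene of the list that met the criterion against both, at 101 ± 48.9 CPM in S2 against 18.3 ± 12 in S1 and 20.7 ± 10.5 in S3. Between S1 and S3, Syt1 (1.08 ± 0.04) and Doc2b (1.32 ± 0.14) were higher in S1 and 0 genes were lower among 34 tested (5.88%, beside 2.88% of all genes higher and 2.71% lower). The log2 difference of Sv2b between S2 and either other type, at 4.00 and 4.64, was above that of every listed gene. Sv2b was picked by the study as an S2 marker on these same nuclei, so that rank follows in part from the choice. Svop, a relative of the SV2 genes, stood at 96.3 CPM in S2, 115 in S1 and 86.6 in S3.

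The genes whose levels over the 21 clusters were most like those of each member differed between members. The likeness is a Pearson r of log2 levels over clusters among 10841 genes, which share libraries and depth. For Sv2a these were Lrrc24 (0.88), the glutamate transporter gene Slc1a6 (0.82), the histone deacetylase gene Hdac11 (0.79), Gm27199 (0.78) and Tmem191c (0.77). For Sv2b they were Rapgef4os1 (0.76), Plekhg5 (0.73), Fam229b (0.71), the mitochondrial gene Opa3 (0.69) and the tRNA synthetase gene Farsa (0.68). For Sv2c they were the cyclin gene Ccng1 (0.84), the DNA end resection gene Rbbp8 (0.82), the kinase gene Nuak1 (0.81), the mitochondrial iron carrier gene Slc25a37 (0.78) and Tfg (0.77). The alpha markers Rbfox3 and Stk32a were less like Sv2b over the clusters (0.21 and 0.22), and the members were little like each other (-0.14 for Sv2a and Sv2b, -0.38 for Sv2a and Sv2c, 0.12 for Sv2b and Sv2c).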

How the data were processed

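Single nuclei were profiled from 3 regions of the cord in 3 pools of 4 mice (12 in all), and the 3 libraries of a replicate share mice. Per the labels and the methods, Cell Ranger 3.1.0 was used by the authors with a reference in which introns of GRCm38 (mm10) were counted, and they normalised with SCTransform in Seurat; the deposited values are its corrected counts, used here as a score and not as raw counts, so no count model was applied. Totals of nuclei within a library vary little by construction, and levels are relative. The authors' cluster and class labels were used; no doublet caller was run here, and the sources used here do not say how doublets were treated beyond the removal of nuclei with outlying gene numbers or mitochondrial shares.

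Corrected counts were summed per library and cluster or class (at least 10 nuclei), scaled to CPM, and tested as log2(CPM + 5) with limma 3.58.1 in R 4.3.3 (trend), on genes reaching 10 CPM in 3 or more sums, with Benjamini-Hochberg adjustment. Fold changes are on that scale and understate low genes. Cluster pairs were fitted with a library term. Python 3.11.15, numpy 2.4.6, pandas 2.3.3, scipy 1.17.1 and Biopython 1.88 served for the rest. Thinning drew 4600 counts per nucleus and left out the 8.63% of nuclei with lower totals. All of these came from lumbar/sacral 1 (44.1% of its nuclei) and lumbar/sacral 3 (13.6%). Fits were tested on simulated data. The members and lists were chosen with earlier results of these data known. Named genes are the members, their partners, listed vesicle genes past the criterion against both other skeletal types, and the 5 most alike per member; other vesicle genes past the criterion were named after their values were seen. Gene spans and coding sequences come from GENCODE M21. A listed marker of interneurons is not reported here.

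The replicate number pairs libraries by shared mice. Deviations of same-numbered libraries from their region means correlated with medians of 0.673 in skeletal and 0.650 in visceral motor neurons, 0.749 in interneurons and 0.333 in S2. The lowest same-numbered pairs were -0.220, -0.136, -0.191 and -0.0835 in the same order. Other pairs had medians of -0.442, -0.401, -0.454 and -0.226. Deviations within a region cancel out, so these negative medians are no separate evidence of the pairing. P-values of the regional fits without a block measure the spread between pools within a region. With the replicate block, differences between pools are taken out, and the p-values measure what spread is left. In the fits by sex each sex is a single pool, so their p-values measure the spread between libraries that share mice. They do not measure the spread between pools.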

Additional observations from a re-analysis of the deposited data

Results flagged for a closer look

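In each of 60 combinations of gene and cluster with 4 to 10 libraries, the highest and lowest library were set against the rest by Dixon's criterion, and 6 held a library that stood apart. Chance alone gives about 1 in 20 such groups. Sv2a in S2 of cervical 2 was 74.6 CPM against 16.3 to 42.9 CPM in the other libraries. Sv2a in V1 of lumbar/sacral 1 was 88.3 CPM against 46.1 to 62.3 CPM, and in V2 of cervical 3 it was 14.4 CPM against 46.8 to 72.9 CPM. Sv2c in V4 of thoracic 1 was 590 CPM against 165 to 343 CPM, and in V5 of the same library 433 CPM against 111 to 236 CPM. Sv2b in I2 of lumbar/sacral 1 was 190 CPM against 123 to 145 CPM.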

How the results depend on the processing

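No value of the family changed sign among those called. Over the 6 comparisons of classes and skeletal clusters, the count past the criterion was 4, and 3 to 6 over the alternatives; leaving out single libraries moved the level of Sv2b in S2 only between 296 and 327 CPM. The regional count of 1 call was less firm: it was 2 with median-of-ratios scaling (Sv2b in V5 was added), 0 to 2 without single libraries, 6 with the replicate block, 4 without the libraries whose Hox genes go against their label, and 0 for visceral nuclei without V8 and V9. Sv2b in lumbar/sacral visceral motor neurons then ranged from -1.21 to -0.99 without single libraries. The count of calls between the male and female pools was 0, and 0 to 1 without single libraries. By limma, Sv2b in S2 passed without thoracic 2 or 3 (adjusted p = 0.0472 and 0.0381), and Sv2c in interneurons without cervical 2 or 3. For these fits, and for Sv2b in V5 with median-of-ratios scaling, the share of all genes that passed is not given. Whether the members stood out there cannot be told. The regional difference in the share of S2 nuclei with Sv2b was -3.27 points after thinning and ran from -24.4 to -9.43 points without single libraries (exact permutation p from 0.0179 to 0.107, above 0.05 without lumbar/sacral 1 or 2). Partner differences larger than their spread numbered 6 as deposited, 2 after thinning and 10 without cervical 2. Leaving the library term out of the comparisons of clusters (no replicate block) left the count at 4. Median-of-ratios scaling shifted the median of all genes by more than 0.1 log2 units in the regional fits of S2 (-0.113 and -0.242), S3 (-0.138) and the skeletal class (-0.128 and -0.135), and in the fit of S2 by sex (0.163). The cause of these changes was not tested. Sv2b averaged under 10 CPM in S3 and V8, where few counts stand behind a value.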
